A study of Mus musculus with 8 samples.

Results

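B cells and plasma cells were followed in whole liver through 9 genes: Cd79a, Cd79b, Ms4a1, Ighm, Igkc, Jchain, Mzb1, Iglc2 and Igha. They were taken by symbol, as B lineage markers and antibody constant regions, from a table of 46517 genes, and all 9 passed the filter on low counts. Liver RNA was sequenced from 8 male littermates of the C57BL/6 strain at 31 weeks of age, 4 of them MøFoxO1-KO and 4 WT. Both groups carried FoxO1 loxP/loxP alleles, and only the MøFoxO1-KO mice also carried Lyz2-Cre, a Cre recombinase under the lysozyme 2 promoter, which is active in myeloid cells. Both groups ate a NASH diet, which induces nonalcoholic steatohepatitis, for 25 weeks from 6 weeks of age, and were fasted for 16 hours. The deletion is thus meant for macrophages, monocytes and neutrophils throughout the body and not for B cells, so the comparison asks whether B lineage RNA in the liver differed when myeloid cells lacked FoxO1.

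A B cell displays an antibody at its surface, where Cd79a and Cd79b carry the signal into the cell. Each antibody joins heavy chains with kappa or lambda light chains, and the constant region of the heavy chain sets its class. B cells that have not met antigen carry IgM and IgD, and class switching replaces these with IgG, IgA or IgE. Plasma cells release antibody in bulk. The J chain links several units of IgM or IgA, and in mice the hepatocytes carry linked IgA from the blood into bile through the receptor Pigr.

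The chemistry that sets IgM and IgA apart from IgG stands in the ends of the secreted heavy chains, which are shown because the antibody classes below fall on either side of it. Each line holds the last 60 bases of the coding region with its stop codon, 5′ to 3′ on the minus strand of chromosome 12 of GRCm38, from the GENCODE M21 transcripts, and capitals mark a cysteine codon just before the last residue, through which the J chain is bound.
Ighm (chr12:113420867-113420926): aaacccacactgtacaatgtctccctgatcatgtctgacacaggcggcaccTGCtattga
Igha (chr12:113258768-113258827): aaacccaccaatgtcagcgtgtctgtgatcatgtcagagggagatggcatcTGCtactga
Ighg1 (chr12:113328976-113329035): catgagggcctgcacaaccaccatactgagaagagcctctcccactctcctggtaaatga
Ighg2b (chr12:113306389-113306448): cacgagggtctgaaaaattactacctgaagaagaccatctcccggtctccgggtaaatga
Ighg2c (chr12:113287389-113287448): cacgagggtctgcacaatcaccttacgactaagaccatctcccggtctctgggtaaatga
Ighg3 (chr12:113359665-113359724): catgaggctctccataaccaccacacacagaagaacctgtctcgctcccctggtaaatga
The ends of Ighm and Igha were identical at 41 of 60 positions and both held the cysteine codon. None of the 4 IgG ends held a cysteine codon in this window. Gene counts take in the secreted and the membrane form together, except for Ighg3, whose counted exons lack the membrane exons. The forms were thus not separated here.

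The authors deposited counts of reads per gene, and totals lay between 15253218 and 18025481 per mouse. Normalized counts are counts scaled by edgeR's TMM factors to the mean library size. The mice are given in the order of replicates 22, 23, 24 and 25 for WT and 26, 27, 28 and 29 for MøFoxO1-KO. The tissue was checked with 6 hepatocyte genes, whose summed normalized counts were between 1168856 and 1573357 in WT livers and between 1389599 and 2008519 in MøFoxO1-KO livers. Foxo1 itself had 253 to 467 counts, which overlapped between the genotypes (log2 fold change -0.17 ± 0.18 SE, quasi-likelihood test of edgeR with Benjamini-Hochberg correction, adjusted P = 0.686). Whole-liver counts of Foxo1 do not check a deletion that is limited to myeloid cells. With 4 mice against 4, exact two-sided permutation tests allow no P under 0.0286.

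Kappa light chain RNA had the highest level of the 9 members per kilobase, and Ms4a1 the lowest. On the scale of normalized counts per kilobase of exon, as means of 8 mice, Igkc was at 1059 ± 915 (SD, n = 8), Ighm at 203 ± 85.0 and Jchain at 37.9 ± 33.7. Cd79b at 37.3 ± 20.5, Cd79a at 36.3 ± 17.9, Iglc2 at 33.4 ± 18.8 and Igha at 31.0 ± 26.4 followed, then Mzb1 at 10.7 ± 5.16 and Ms4a1 at 3.31 ± 2.79. Igkc was above Ighm, and Ighm above Jchain, in 8 of 8 mice, and Mzb1 was above Ms4a1 in 8 of 8. The order from Jchain to Igha was not fixed, since Jchain exceeded Cd79b in 3 of 8 mice, Cd79b exceeded Cd79a in 3, Cd79a exceeded Iglc2 in 4 and Iglc2 exceeded Igha in 5.

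None of the 9 members met the study's limits, an adjusted P below 0.05 with a log2 fold change past 1.5 in either direction, which 25 of 13278 genes, or 0.188%, met. At an unadjusted P under 0.05, 1 of the 9 members, Igha, was higher in MøFoxO1-KO livers and none was lower. Over all genes, 8.65% were higher and 8.06% lower at that level. The members had a median log2 fold change of 0.80 against -0.01 over all genes, with 7 values above 0 and 2 below.

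**Figure D1:**
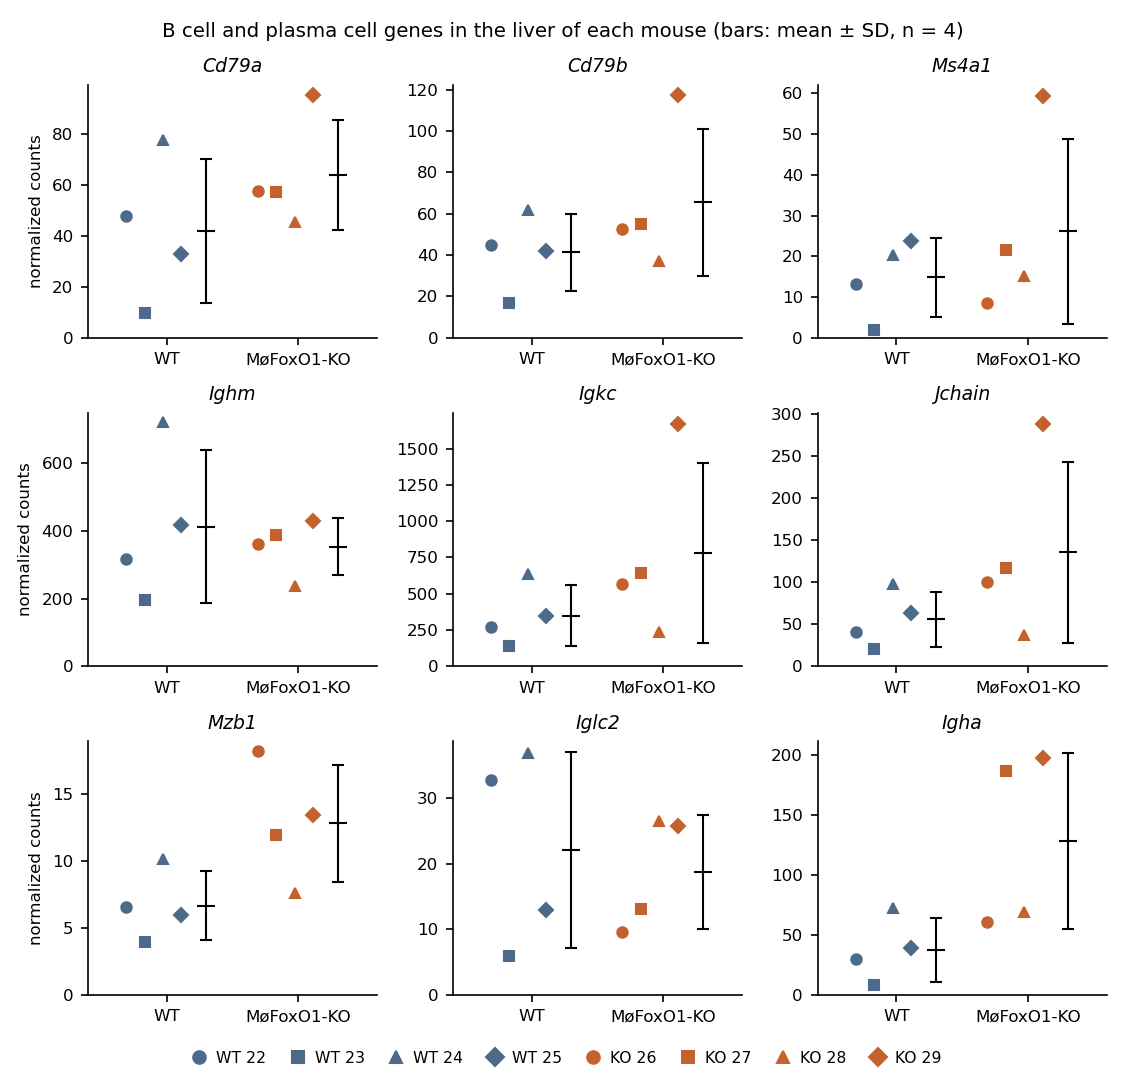
Normalized counts (vertical axes, from 0) of the 9 genes in each WT (blue) and MøFoxO1-KO (orange) liver, with the mean and SD of 4 mice in black. The groups overlapped for every gene; WT 23 was the lowest of the 8 mice for 9 of 9 genes, and KO 29 the highest for 6.

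The B cell receptor subunits and CD20 did not separate the genotypes. Normalized Cd79a counts were 47.7, 9.82, 77.5 and 32.8 in WT livers and 57.5, 57.3, 45.5 and 95.1 in MøFoxO1-KO livers. Its partner Cd79b was at 44.9, 16.7, 61.8 and 41.8 in WT livers and at 52.7, 54.9, 37.0 and 117 in MøFoxO1-KO livers. For both subunits, WT 23 was the lowest mouse, KO 29 the highest, and the other 6 were intermixed. Log2 fold changes were 0.60 ± 0.50 (SE) for Cd79a and 0.66 ± 0.44 for Cd79b (edgeR, adjusted P = 0.587 and 0.492, exact permutation P = 0.286 and 0.314). Ms4a1, which encodes CD20, a surface protein of mature B cells, had 13.1, 1.97, 20.3 and 23.9 normalized counts in WT livers and 8.62, 21.5, 15.2 and 59.3 in MøFoxO1-KO livers. KO 29 stood above the other 7 mice, while KO 26 lay below 3 of the WT mice. Its log2 fold change was 0.80 ± 0.70 (edgeR, adjusted P = 0.609), and it fell to 0.01 without KO 29. In whole liver, fewer cells of a type and less RNA per cell cannot be told apart.

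IgM heavy chain RNA differed between the genotypes by less than the spread between mice. Normalized Ighm counts were 316, 196, 722 and 417 in WT livers and 361, 387, 236 and 431 in MøFoxO1-KO livers. All MøFoxO1-KO values lay inside the WT range, which WT 23 and WT 24 set. The log2 fold change was -0.22 ± 0.35 (edgeR, adjusted P = 0.785), and without WT 24 it was 0.19. Ighd, the constant region of IgD, which is spliced from the same transcripts as IgM in resting B cells, showed 68.3, 22.6, 106 and 45.8 normalized counts against 40.2, 54.9, 64.5 and 59.3. The groups overlapped here too (log2 fold change -0.15 ± 0.41, edgeR, adjusted P = 0.885).

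IgA was the member with the largest fold change. Normalized Igha counts were 30.0, 7.86, 71.9 and 38.8 in WT livers and 60.3, 186, 69.2 and 197 in MøFoxO1-KO livers. KO 27 and KO 29 lay above every WT mouse, and the other two MøFoxO1-KO mice lay between WT 25 and WT 24. The means were 37.1 ± 26.6 (SD, n = 4) and 128 ± 73.4, a log2 fold change of 1.77 ± 0.59 (edgeR, unadjusted P = 0.0128, adjusted P = 0.193, exact permutation P = 0.0857). Only DESeq2, of the fits run, put Igha past both limits, with a log2 fold change of 1.80 and an adjusted P of 0.0372.

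The J chain, kappa and Mzb1 were higher on average in MøFoxO1-KO livers, with overlapping groups. Normalized Jchain counts were 41.2, 20.6, 97.7 and 62.7 in WT livers and 99.6, 117, 37.0 and 287 in MøFoxO1-KO livers. KO 26, KO 27 and KO 29 lay above every WT mouse and KO 28 lay below 3 of them. Its log2 fold change was 1.28 ± 0.60 (edgeR, adjusted P = 0.321), and 0.60 without KO 29. Igkc, the only kappa constant region gene, had 268, 142, 639 and 346 normalized counts in WT livers and 564, 644, 234 and 1670 in MøFoxO1-KO livers. KO 29 stood far above the other 7 mice. Its log2 fold change was 1.16 ± 0.57 (edgeR, adjusted P = 0.346), and 0.46 without KO 29. Mzb1, a helper of antibody folding in the endoplasmic reticulum of marginal zone B cells and plasma cells, was near the limit of the depth with 4 to 19 counts per mouse. Its normalized counts were 6.55, 3.93, 10.1 and 5.97 in WT livers and 18.2, 11.9, 7.59 and 13.4 in MøFoxO1-KO livers. KO 28 alone overlapped with the WT mice (log2 fold change 0.93 ± 0.44, edgeR, adjusted P = 0.328).

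Lambda light chain RNA overlapped between the genotypes. Iglc2, the lambda constant region with the most counts, had 32.8, 5.90, 36.9 and 12.9 normalized counts in WT livers and 9.58, 13.1, 26.6 and 25.7 in MøFoxO1-KO livers. All MøFoxO1-KO values were inside the WT range, with a log2 fold change of -0.24 ± 0.57 (edgeR, adjusted P = 0.867) that was 0.01 without WT 22 and 0.12 without WT 24. Iglc2 shares 10.5% of its stretches of 50 bases with Iglc3 and overlaps the joining segment Iglj2 on the same strand, so some reads could count for either gene. Iglc1 and Iglc3 had at most 12 counts in any mouse and Iglc4 had 0 in all 8. Lambda took 10.3, 6.45, 7.17 and 6.51% of light chain counts per kilobase in WT livers and 5.54, 4.79, 12.4 and 2.53% in MøFoxO1-KO livers. The overlap of the groups left a difference of -1.29 percentage points (exact permutation test, P = 0.600, adjusted P = 0.686 over 6 shares).

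Of the antibody constant regions, IgG1 differed most between the genotypes. IgG1, the class of many T cell-dependent responses, was low in all WT livers and higher in all MøFoxO1-KO livers. Normalized Ighg1 counts were 10.3, 3.93, 16.6 and 0.995 in WT livers and 286, 56.1, 30.3 and 202 in MøFoxO1-KO livers. The lowest MøFoxO1-KO mouse, KO 28, was above the highest WT mouse, WT 24. The means were 7.95 ± 6.95 (SD, n = 4) and 144 ± 122, a log2 fold change of 4.14 ± 0.83 (edgeR, unadjusted P = 5.52e-04, adjusted P = 0.0851, exact permutation P = 0.0286). Of the 8 constant regions that passed the filter, 4 were higher at an unadjusted P under 0.05 (Igha, Ighg1, Ighg2b and Ighg2c) and none lower. Over all genes, 8.65% were higher and 8.06% lower at that level. The median of the 8 log2 fold changes was 1.46. With 1 to 18 counts in WT livers, Ighg1 passed the filter through the MøFoxO1-KO livers, where it had 32 to 299. The 4 of 8 and this median thus depend in part on the filter. Among them, Ighg1 alone had all MøFoxO1-KO mice above all WT mice, a pattern that 5.00% of all genes showed, and none had all MøFoxO1-KO mice below, as 4.71% of all genes did. Ighg1 was past both limits with DESeq2 (adjusted P = 0.00153), without a filter on low counts (edgeR, adjusted P = 0.00748) and without KO 28 (edgeR, adjusted P = 0.0309), and it missed the adjusted limit in the other 12 of 15 fits.

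The other IgG subclasses leaned the same way but rested on fewer mice. Ighg2b had 56.2, 6.88, 105 and 21.9 normalized counts in WT livers and 61.3, 160, 48.4 and 1188 in MøFoxO1-KO livers. KO 29 alone held most of it, and the log2 fold change of 2.92 ± 1.08 (edgeR, unadjusted P = 0.0219, adjusted P = 0.225) was 0.90 without KO 29. Ighg2c, the subclass that C57BL/6 mice carry in place of IgG2a, had 14.04, 8.84, 62.7 and 12.9 normalized counts against 53.6, 63.2, 16.1 and 223. WT 24 stood above the other WT mice and KO 28 below the other MøFoxO1-KO mice (log2 fold change 1.83 ± 0.81, edgeR, unadjusted P = 0.0465, adjusted P = 0.289). Its log2 fold change was 0.83 without KO 29 and 2.88 without WT 24. Ighg3, often made against bacterial sugars, did not pass the filter, with 0 to 7 counts in WT livers and 42, 2, 3 and 110 in MøFoxO1-KO livers. KO 26 and KO 29 carried nearly all of it. Ighe had at most 2 counts in any mouse, which is below the 3 counts that an observed 0 allows. Reads could be shared between subclasses, since 5.49% of the 50-base stretches of Ighg2c, 4.15% of those of Ighg2b, 1.58% of those of Ighg3 and 0.393% of those of Ighg1 occur in another antibody gene.

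**Figure D2:**
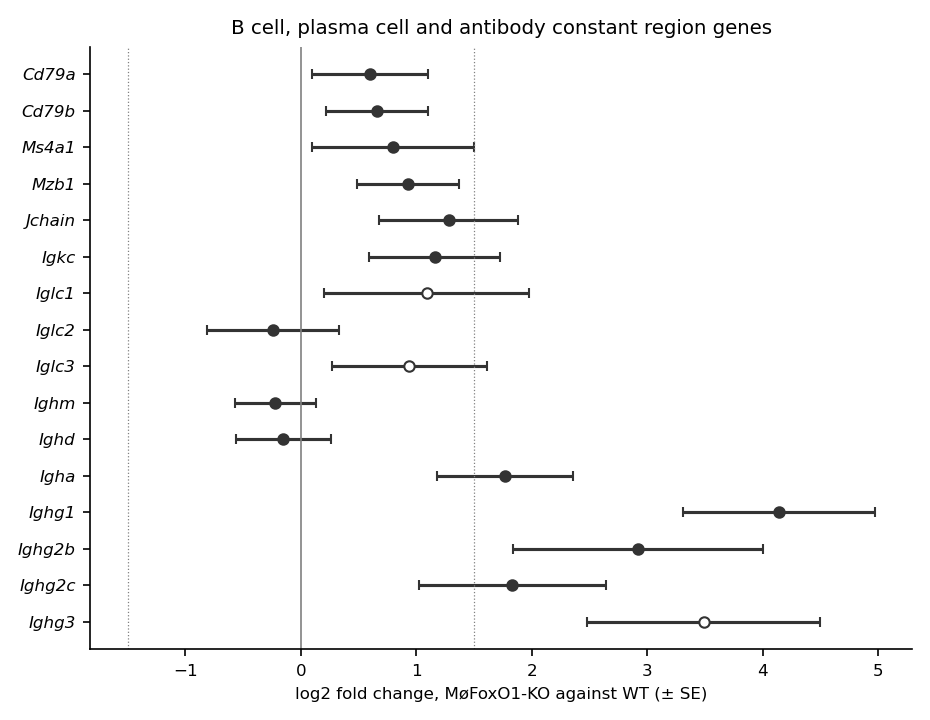
Log2 fold changes of MøFoxO1-KO against WT livers with standard errors, for the members and the antibody constant regions with enough counts to plot; open points (Iglc1, Iglc3, Ighg3) come from the fit without a filter on low counts, and dotted lines mark 1.5 and -1.5. Ighm, Ighd and Iglc2 sit near 0, while Igha and the 4 IgG constant regions lie above 1.5.

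The 13 antibody constant regions summed to 805, 399, 1775 and 914 normalized counts in WT livers and 1500, 1585, 737 and 4137 in MøFoxO1-KO livers, a ratio of means of 2.04, or 1.31 without KO 29. Since this total varied widely within both groups, each heavy chain class was also taken as its share of the heavy chain counts per kilobase within the same liver. IgM took 65.3, 79.1, 68.5 and 77.7% in WT livers and 42.8, 47.1, 54.5 and 20.1% in MøFoxO1-KO livers. The highest MøFoxO1-KO share was below the lowest WT share. Its mean was 72.7% ± 6.80 (SD, n = 4) in WT and 41.1% ± 14.9 in MøFoxO1-KO livers, a difference of -31.5 percentage points (exact permutation test, P = 0.0286, adjusted P = 0.0857 over 6 shares). IgG took 15.8, 9.59, 16.6 and 8.70% in WT livers and 47.1, 30.2, 19.4 and 70.6% in MøFoxO1-KO livers. Here the lowest MøFoxO1-KO mouse, KO 28, was 2.76 points above the highest WT mouse, and the means of 12.7% ± 4.13 and 41.8% ± 22.3 differed by 29.1 percentage points (exact permutation test, P = 0.0286, adjusted P = 0.0857). The IgM and IgG shares are parts of one total and so are not independent of each other. The adjusted P of both is over 0.05, although neither test could have given a smaller P.

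For the IgG share, counting error was smaller than the distance to the WT mice in KO 26, KO 27 and KO 29, but not in KO 28. As shares of raw heavy chain counts with 95% Wilson intervals, which cover counting error only, IgG was 17.1% (14.2 to 20.6) in WT 22 and 17.0% (15.0 to 19.3) in WT 24, the highest of the WT livers, and 20.9% (17.5 to 24.7) in KO 28. The intervals of these 3 mice overlapped. The other MøFoxO1-KO livers had 48.8% (45.6 to 52.0) in KO 26, 31.0% (27.8 to 34.3) in KO 27 and 71.6% (69.7 to 73.5) in KO 29. Without KO 29, the mouse with the most antibody RNA, the IgG share still differed by 19.5 percentage points and the IgM share by -24.5 (exact permutation test, P = 0.0286 for each). The summed normalized counts of the 4 IgG genes, in contrast, overlapped between groups (86.1, 21.6, 184 and 42.8 against 442, 282, 97.7 and 1736), with a ratio of means of 7.63, or 3.27 without KO 29.

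**Figure D3:**
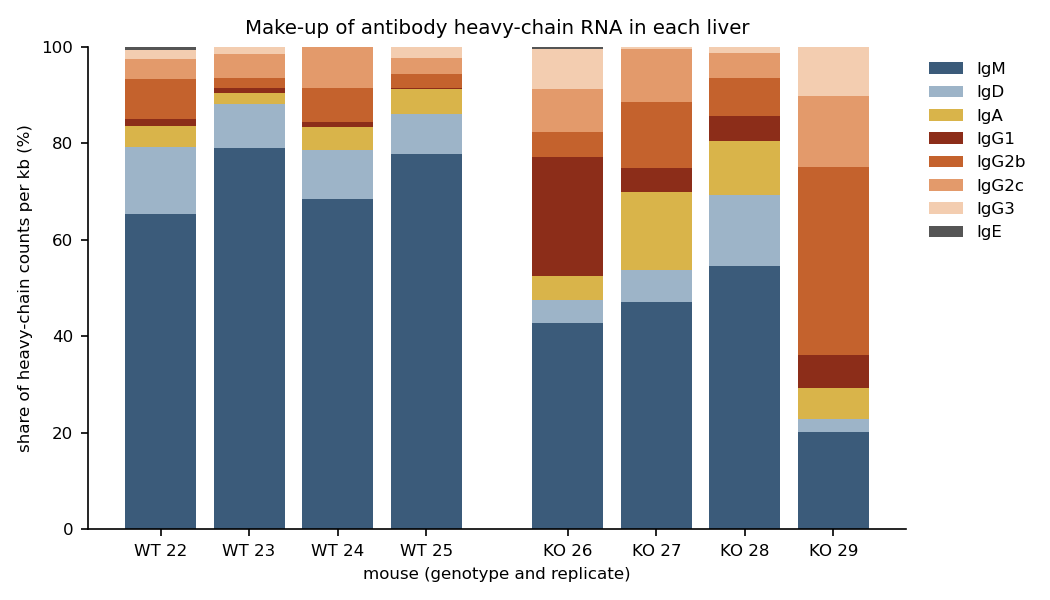
Share of each class in the heavy chain counts per kilobase (vertical axis, percent) of every liver, stacked to 100%. IgM (dark blue) fills 65.3% or more of each WT bar and 54.5% or less of each MøFoxO1-KO bar; IgG1 is the largest IgG subclass in KO 26 and IgG2b in KO 27, KO 28 and KO 29.

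IgA and the other shares were less clear. The IgA share was 4.37, 2.25, 4.83 and 5.11% in WT livers and 5.05, 16.0, 11.3 and 6.49% in MøFoxO1-KO livers. KO 26 alone fell inside the WT range, and the difference was 5.58 percentage points (exact permutation test, P = 0.0571, adjusted P = 0.114 over 6 shares). IgD took 13.99, 9.07, 9.99 and 8.47% in WT livers against 4.73, 6.64, 14.8 and 2.74%, with overlap and no test. Every IgG subclass had a higher mean share in MøFoxO1-KO livers, from 0.996 to 10.4% for Ighg1, from 5.01 to 16.4% for Ighg2b, from 5.28 to 10.0% for Ighg2c and from 1.42 to 4.99% for Ighg3. Ighg1 was the only subclass whose shares did not overlap between the groups.

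Variable segments bear on whether the antibody RNA of a liver came from many or few B cell clones, since each clone keeps 1 heavy and 1 light chain rearrangement. Reads on these segments were few, at 1837 over 346 segments and 8 mice, and none of the segments passed the filter. Heavy chain segments had 12 to 59 counts in WT livers over 11 to 25 segments and 23 to 105 in MøFoxO1-KO livers over 14 to 22 segments. The leading heavy chain segment held 14.8, 16.7, 18.6 and 19.2% of these counts in WT livers and 31.6, 15.2, 13.04 and 22.9% in MøFoxO1-KO livers. KO 26 had the largest share, 30 of 95 counts on Ighv14-1 (95% Wilson interval 23.1 to 41.5%), a segment with 0 counts in all 4 WT livers. The mean leading share differed by 3.34 percentage points (exact permutation test, P = 0.486, adjusted P = 0.686 over 6 shares), and by -0.301 without KO 26. A leading share tends to be larger where counts are few, and in WT 23 the leader had 2 of 12 counts. Livers were not brought to equal counts, so this test and the kappa test below cannot decide between many and few clones.

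Kappa segments were read more deeply, with 48 to 214 counts in WT livers and 78 to 474 in MøFoxO1-KO livers. The leading kappa segment took 9.26, 16.7, 15.9 and 11.3% in WT livers and 17.0, 9.89, 8.97 and 14.8% in MøFoxO1-KO livers, which overlapped (exact permutation test, P = 0.686). Different mice had different leaders. Igkv1-122 had 40 counts in KO 26 and at most 1 in any other mouse. Igkv17-127 had 70 counts in KO 29 and at most 9 in any other mouse. Igkv12-46 had 45 counts in KO 29 and at most 3 elsewhere. Igkv1-110 was shared by KO 26 with 37 counts and KO 29 with 36, against at most 9 in the other 6 mice. WT livers had such segments as well, since Igkv5-39 had 34 counts in WT 24 and at most 4 elsewhere, and Ighv4-1 had 11 in WT 24 and 0 elsewhere. Segments of a family resemble each other, and 50.9% of the 50-base stretches of Igkv1-110, 45.4% of those of Ighv14-1, 35.3% of those of Igkv17-127 and 17.1% of those of Igkv1-122 occur in another antibody gene. The shared stretches of Igkv1-110 lie in Igkv1-117 and Igkv1-122, so the segment named for a mouse is uncertain within its family.

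Pearson's r of log2 normalized counts over 8 mice, taken for every pair of members as a description, ran from 0.185 for Mzb1 and Iglc2 to 0.996 for Jchain and Igkc. Iglc2 stood apart, at 0.309 with Jchain and 0.352 with Igkc. Across the 8 livers, log2 normalized Jchain and Igkc had r = 0.996 and rho = 0.976 (exact permutation tests, P = 7.44e-05 and 3.97e-04, adjusted P = 2.23e-04 and 0.00114 over 3 pairs). Cd79b and Igkc had r = 0.951 and rho = 0.952 (exact permutation tests, P = 7.44e-04 and 0.00114, adjusted P = 7.44e-04 and 0.00114). Cd79b and Cd79a had r = 0.940 and rho = 0.952 (exact permutation tests, P = 3.22e-04 and 0.00114, adjusted P = 4.84e-04 and 0.00114). Without WT 23 and KO 29, the mice farthest from the median in each pair, r was 0.988, 0.925 and 0.830. With the mean of each genotype removed, an alternative chosen after seeing the data, r was 0.996, 0.938 and 0.923 (exact permutation tests within genotype, P = 0.00347, 0.00521 and 0.00347). The ratio of Jchain to Igkc normalized counts was 0.154, 0.146, 0.153 and 0.181 in WT livers and 0.177, 0.181, 0.158 and 0.172 in MøFoxO1-KO livers, so it stayed narrow while both genes ranged widely. Igkc per Cd79b, kappa RNA in relation to a receptor subunit, was 5.96, 8.47, 10.3 and 8.29 in WT livers against 10.7, 11.7, 6.33 and 14.2, with overlap.

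**Figure D4:**
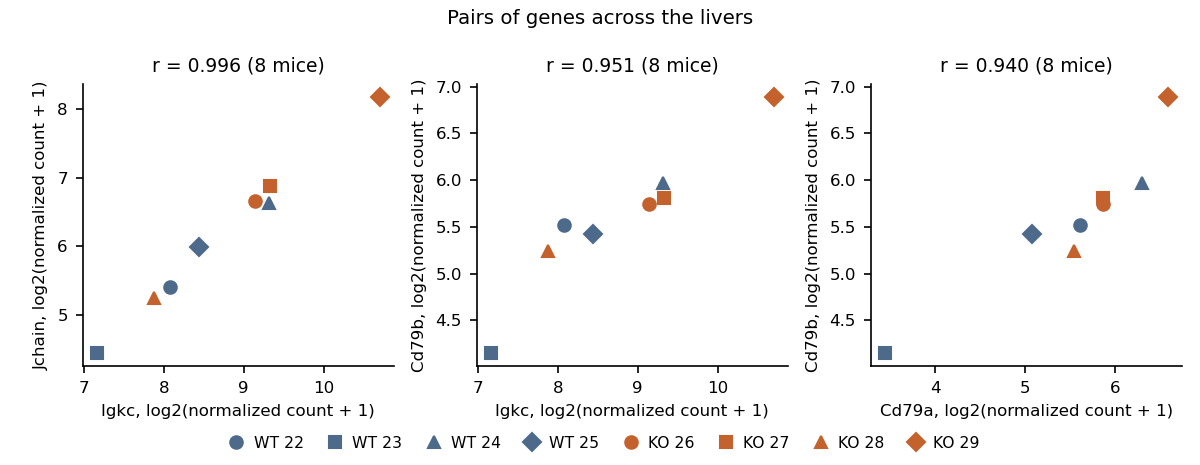
Log2(normalized count + 1) of Jchain against Igkc, Cd79b against Igkc and Cd79b against Cd79a in 8 livers; blue is WT, orange is MøFoxO1-KO, and symbols mark replicates. In each panel WT 23 is the lowest point and KO 29 the highest, and r is 0.996, 0.951 and 0.940.

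The genes whose pattern was most like Jchain, by Pearson's r of log2 normalized counts over 8 mice among the genes tested, were Clec4a3 (r = 0.972), Cd300e (0.962), Rrp36 (0.961), Clec4a1 (0.960) and Gtf2ird2 (0.957). Clec4a3, Clec4a1 and Cd300e encode surface receptors of myeloid cells. Those most like Cd79b were Itgam (r = 0.987), a myeloid integrin, Coro1a (0.986), an actin regulator of leukocytes, Serpinb6a (0.983), Pkm (0.979) and Pfn1 (0.976). These coefficients describe 8 livers that also differed in leukocyte RNA in general.

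The sums of the pan-leukocyte, T cell, NK cell and macrophage lists were lowest in WT 23 and highest in KO 29. The neutrophil sum was instead lowest in KO 26 and highest in WT 24. Ptprc, the pan-leukocyte marker CD45, was at 181, 104, 323 and 174 normalized counts in WT livers and 168, 300, 175 and 638 in MøFoxO1-KO livers. WT 23 was lowest, as for all 9 members, and KO 29 highest, as for 6 of them. Summed over 7 pan-leukocyte genes, levels were 1696 to 2944 in WT livers and 1960 to 4857 in MøFoxO1-KO livers, and 1 of the 7, the GTPase Rac2, passed an unadjusted P under 0.05. The T cell list summed to 82.5 to 216 and 151 to 334, with 9 of 12 genes tested and Lck and Trac higher (log2 fold changes 1.35 and 1.02, edgeR, unadjusted P = 0.0331 and 0.0489). The macrophage list summed to 3036 to 5253 and 3222 to 14470. Of its 11 genes, all tested, 5 were higher and 2 lower at an unadjusted P under 0.05 (edgeR). The shares of all genes at that level, for this and the other lists of this paragraph, were 8.65% higher and 8.06% lower. The scavenger receptor Marco (log2 fold change 5.18), the Kupffer cell markers Timd4 (2.08) and Cd5l (1.08), Vsig4 (1.08) and Adgre1 (1.03) were higher. Gpnmb (-4.13) and Trem2 (-3.88) were lower. In this list Gpnmb alone met both limits (edgeR, adjusted P = 0.0382), as 0.188% of all genes did. Gpnmb had 1 to 8 counts and Trem2 0 to 7 in MøFoxO1-KO livers, so both passed the filter through the WT livers. Of the NK cell list, 3 of 8 genes were tested and Klrk1 was higher (log2 fold change 1.20, edgeR, unadjusted P = 0.0302), with sums of 41.3 to 95.9 and 61.3 to 180. Neutrophil genes summed to 30.9 to 73.8 and 15.3 to 71.6 with S100a8 and S100a9 at log2 fold changes of -0.05 and -0.08. Hemoglobin and other red blood cell genes, a measure of blood left in the tissue, summed to 6288 to 23179 and 8034 to 16657. Of 7 such genes 6 were tested, and 1 was higher at an unadjusted P under 0.05, Alas2, a heme synthesis enzyme of red cell precursors (log2 fold change 1.40 ± 0.54, edgeR, unadjusted P = 0.0272, adjusted P = 0.244). The other 5 had log2 fold changes below 0. The ratio of Cd79b to Ptprc was 0.249, 0.160, 0.191 and 0.240 in WT livers and 0.314, 0.183, 0.211 and 0.184 in MøFoxO1-KO livers, so it overlapped. The class shares given above are ratios within a liver, which removes depth and scaling but not the mix of cells. The part of leukocyte content and of blood in these results, the class shares among them, was not tested.

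Other genes of the B cell receptor and surface mostly overlapped. Of 26, 17 were tested, 1 was higher and 1 lower at an unadjusted P under 0.05, and the median log2 fold change was 0.41. At that level 8.65% of all genes were higher and 8.06% lower. Cd72, an inhibitory coreceptor of B cells, had 25.3, 30.5, 83.9 and 35.8 normalized counts in WT livers and 41.2, 106, 55.0 and 235 in MøFoxO1-KO livers. It followed the members in being highest in KO 29 (log2 fold change 1.31 ± 0.57, edgeR, unadjusted P = 0.0449, adjusted P = 0.285). Ly6d, a surface protein of lymphoid progenitors, went the other way, with 234, 851, 643 and 138 normalized counts against 92.9, 85.9, 73.0 and 216. It was highest in WT 23, the mouse with the least of all 9 members (log2 fold change -2.00 ± 0.56, edgeR, unadjusted P = 0.00519, adjusted P = 0.148).

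Of 22 B cell receptor signaling genes, all tested, 1 was higher and 2 lower at an unadjusted P under 0.05, with a median log2 fold change of 0.20. Among all genes, 8.65% were higher and 8.06% lower at that level. Bcl10, an adaptor that links antigen receptors to NF-κB, was at 311, 336, 359 and 322 normalized counts in WT livers and at 230, 271, 211 and 267 in MøFoxO1-KO livers, with no overlap (log2 fold change -0.44 ± 0.12, edgeR, unadjusted P = 0.00493, adjusted P = 0.145). All MøFoxO1-KO mice lay below all WT mice for 4.71% of all genes. Pik3ap1, which couples the receptor to PI3 kinase, had a log2 fold change of -0.94 and Dok3, a brake on the receptor, one of 0.90 (edgeR, unadjusted P = 0.0127 and 0.0401). In WT 23, the mouse with the least of all 9 members, Pik3ap1 was highest at 603 normalized counts and Dok3 lowest at 24.6. Of 18 transcription factors, 16 were tested and Klf2 (log2 fold change 0.89 ± 0.29) and Pou2f2 (1.16 ± 0.44), the octamer factor Oct-2, were higher (edgeR, unadjusted P = 0.0108 and 0.0242). None was lower at that level, at which 8.65% of all genes were higher and 8.06% lower. Klf2 is also active in endothelium. It separated the groups, as 5.00% of all genes did in this direction, with 89.4 to 238 normalized counts in WT and 242 to 407 in MøFoxO1-KO livers.

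Genes of class switching and germinal centers were mostly low. Of 13 genes, 8 were tested and 1, the repair enzyme Apex1, was lower (log2 fold change -0.67 ± 0.27, edgeR, unadjusted P = 0.0313), with a median of -0.04. None was higher at an unadjusted P under 0.05, where 8.65% of all genes were higher and 8.06% lower. Rag2 and Rgs13 had 0 counts in all 8 mice. Fas and S1pr2, the highest of the list per kilobase, had log2 fold changes of 0.06 and -0.08.

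**Figure D5:**
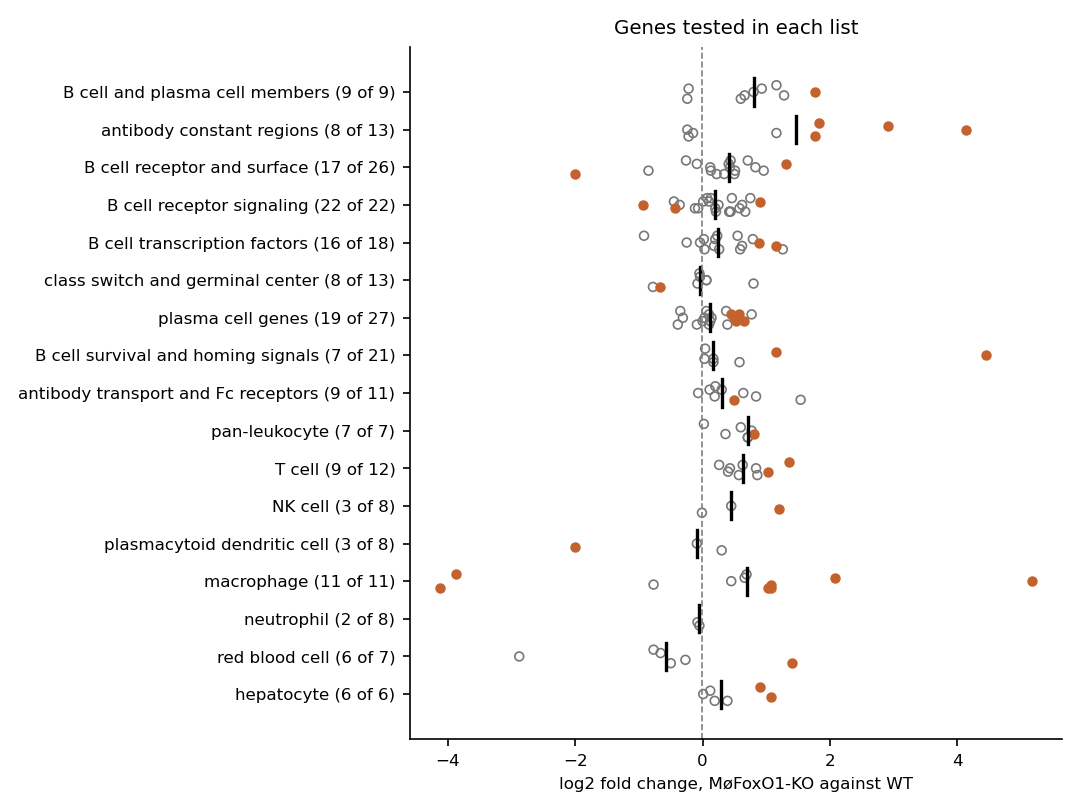
Log2 fold change of MøFoxO1-KO against WT for every tested gene (points) in each list, with the number tested of the number listed; filled points have an unadjusted P under 0.05, black bars are list medians and the dashed line is the median of all genes, -0.01. Antibody constant regions have the highest median, 1.46, over the 8 of 13 that passed the filter.

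Among 27 plasma cell genes, 19 were tested and 5 were higher, none lower, at an unadjusted P under 0.05, with a median log2 fold change of 0.12. Over all genes, 8.65% were higher and 8.06% lower at that level. The 5 genes belong to the secretory pathway that hepatocytes also use. The chaperone Hsp90b1 had 3439, 3743, 3712 and 3722 normalized counts in WT livers and 4850, 5589, 4590 and 4938 in MøFoxO1-KO livers. All MøFoxO1-KO mice were above all WT mice, as for 5.00% of all genes (log2 fold change 0.45 ± 0.11, edgeR, adjusted P = 0.121). Ssr4 and Sec11c, which act at the translocon, also separated the groups (log2 fold changes 0.57 ± 0.16 and 0.49 ± 0.13, edgeR, adjusted P = 0.141 for each). Fkbp11 and Creld2, folding helpers, had log2 fold changes of 0.65 and 0.52 with overlap. Prdm1, Irf4 and Tnfrsf17 had at most 14, 12 and 5 counts in any mouse and did not pass the filter. Xbp1 had 2058 to 3077 counts and Sdc1 2546 to 4240, with overlap between the groups (log2 fold changes 0.10 ± 0.14 and -0.00 ± 0.16). Of 6 hepatocyte genes, 2 were higher as well, Apoa1 at 1.07 and Serpina1a at 0.90 (log2 fold changes, edgeR, unadjusted P = 4.23e-04 and 0.00121), and the part of hepatocytes in these 5 genes was not tested.

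Among signals that attract and sustain B cells, a chemokine stood out. Cxcl13, the chemokine that draws B cells through Cxcr5, had 0.936, 0.982, 6.46 and 14.9 normalized counts in WT livers and 79.5, 269, 4.74 and 164 in MøFoxO1-KO livers. KO 28 lay inside the WT range and the other MøFoxO1-KO mice far above it (log2 fold change 4.45 ± 1.07, edgeR, unadjusted P = 0.00189, adjusted P = 0.119, exact permutation P = 0.0857). Ltb, a lymphotoxin subunit that shapes lymphoid tissue, had 30.9, 13.8, 36.9 and 33.8 normalized counts against 24.9, 59.7, 65.4 and 110 (log2 fold change 1.16 ± 0.45, edgeR, unadjusted P = 0.0265, adjusted P = 0.241). With 1 to 15 counts in WT livers, Cxcl13 passed the filter mainly through the MøFoxO1-KO livers, where it had 83, 225, 5 and 147. Of the 21 genes of this list, 7 were tested and 2 were higher at an unadjusted P under 0.05, none lower. Of all genes, 8.65% were higher and 8.06% lower at that level. All 7 had values above 0, as 6417 of 13278 genes did, with a median of 0.17. Genes of the list that missed the filter went both ways in the fit without it. KO 28 was also the MøFoxO1-KO mouse with the least Cd79a, Cd79b, Ighm, Igkc, Jchain, Mzb1, Ighg1 and Marco. In contrast, Ms4a1, Iglc2, Igha and Ltb were lowest in KO 26 among the MøFoxO1-KO mice.

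Of 11 genes that carry or bind antibody, 9 were tested and 1, B2m, was higher at an unadjusted P under 0.05. Over all genes, 8.65% were higher and 8.06% lower at that level, and 5.00% had all MøFoxO1-KO mice above all WT mice. B2m, the light chain of the neonatal Fc receptor and of MHC class I, had 42732, 39634, 36796 and 45453 normalized counts in WT livers and 55363, 60714, 50957 and 63995 in MøFoxO1-KO livers, without overlap (log2 fold change 0.49 ± 0.14, edgeR, unadjusted P = 0.00535, adjusted P = 0.148). Pigr, the receptor that takes IgA into bile, was at 18318 ± 8339 (SD, n = 4) in WT and 17442 ± 1797 in MøFoxO1-KO livers (log2 fold change -0.07 ± 0.28, edgeR, adjusted P = 0.924). The plasmacytoid dendritic cell list, a cell type that shares Ly6d with B cells, had 3 of 8 genes tested and sums of 3453 to 4696 and 3522 to 5487.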

How the data were processed

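Liver RNA of 4 MøFoxO1-KO and 4 WT mice was analysed. The values deposited by the authors are raw read counts of each gene, from polyadenylated RNA, with mm10 coordinates and summed exon lengths. STAR and featureCounts are named in the submitters' processing notes; their settings, such as strand and the handling of ambiguous reads, are not given in the sources used here. Ambiguous reads could move counts between similar antibody genes. Total counts of 15253218 to 18025481 per mouse leave genes under about 10 counts imprecise. The labels give no batch.

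Symbols came from GENCODE M21 for 46005 of 46517 genes. The counted Ighg3 lacks the membrane exons of that annotation. Genes were filtered with filterByExpr (minimum count 10, minimum total 15), TMM scaled, and fitted in edgeR 4.0.16 (R 4.3.3, quasi-likelihood test) over 13278 genes, with Benjamini-Hochberg adjustment. The study's limits for a call were used, an adjusted P below 0.05 and a log2 fold change past 1.5 in either direction. Genes under the filter were taken from a fit without it. Single values and 6 antibody shares were compared by exact two-sided permutation tests of the difference in means, and pairs of genes by exact permutation of log2(normalized count + 1). Levels and shares per kilobase used the exon lengths in the table. Intervals are 95% Wilson intervals and cover counting error only, as no molecular identifiers are described. Alternatives were DESeq2 1.42.0, limma-voom (limma 3.58.1), a robust edgeR fit, other scalings, other filters and limits, raw-count shares, a prior count of 5 and leaving out each mouse. The fits were tested on simulated data.

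The members and the gene lists were chosen with earlier results of these data known. Named were the 9 members, the 13 antibody constant regions, Foxo1, in every other list up to 5 genes with the smallest unadjusted P under 0.05 or, where fewer than 2 passed, the 2 with the most counts per kilobase, the 3 leading variable segments per chain and the leader of each mouse, and the 5 genes most like Jchain and Cd79b. Any other gene was named with its values in view. Sequences are from the GENCODE M21 transcripts, and stretches of 50 bases were compared between antibody genes on the same strand. Python 3.11.15, scipy 1.17.1, pandas 2.3.3, numpy 2.4.6 and matplotlib 3.10.9 were used.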

Additional observations from a re-analysis of the deposited data

Results flagged for a closer look

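Each value below lay farther from the rest of its own group of 4 mice than Dixon's 95% limit allows, in 7 of 130 groups screened. Chance gives about 1 such value in 20 groups. Normalized Ighg2b in KO 29 was 1188, against at most 160 in the other MøFoxO1-KO mice. Normalized Ighg2c in WT 24 was 62.7, against at most 14.04 in the other WT mice. Normalized Ighe in WT 22 was 1.87, from 2 counts, with 0 in the other WT mice. Normalized Ly6d in KO 29 was 216, against at most 92.9 in its group. Normalized S1pr2 in WT 23 was 185, against at most 118. Normalized Hsp90b1 in WT 22 was 3439, below 3712 to 3743 in the other WT mice. Normalized Nkg7 in KO 29, a cytotoxic granule gene, was 43.6, against at most 16.7 in its group.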

How the results depend on the processing

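No paired analysis was possible because the replicate numbers of the WT mice, 22 to 25, and of the MøFoxO1-KO mice, 26 to 29, are not shared. Of 193 fold changes of 14 members and constant regions under the alternatives, 184 kept their direction and their side of both limits, 4 passed the limits (Igha with DESeq2, Ighg1 with DESeq2, without a filter and without KO 28) and 5 changed sign. The 5 were Ighm without WT 24 (0.19), Iglc2 without WT 22 (0.01) and without WT 24 (0.12), and Ighd with limma-voom (0.02) and without WT 24 (0.26), none of them past a limit, and the cause was not tested. Without single mice these 3 genes ranged from -0.46 to 0.19 (Ighm), -0.55 to 0.12 (Iglc2) and -0.42 to 0.26 (Ighd). The 25 genes called became 144 with DESeq2, 13 with limma-voom, 120 without a filter and 39 with the adjusted P alone. Leaving out a mouse gave 3 to 82, with 15 without WT 22, 3 without WT 25, 9 without KO 26, 7 without KO 27, 82 without KO 28 and 13 without KO 29. Members past an unadjusted P of 0.05 were 1 in the main analysis, Igha. They were 2 with DESeq2 (Jchain and Igha), 3 without a filter (Igkc, Jchain and Igha), 0 with at least 10 counts in every mouse, where Igha was among the 4 members not tested, and 0 at an unadjusted P under 0.01. Leaving out a mouse gave 1 to 4, and the 4 without WT 24 and without KO 28 were Igkc, Jchain, Mzb1 and Igha. In the main fit 8.65% of all genes were higher and 8.06% lower at an unadjusted P under 0.05. These shares are not given for the alternatives, so a larger count of members there cannot be read as a stronger result for them. The IgM share difference lay between -36.0 and -24.5 points without single mice and the IgG share difference between 19.5 and 36.6. Both kept their sign, with an exact permutation P of 0.0286 or 0.0571. The IgA difference lay between 3.47 and 7.14 points, the lambda difference between -3.32 and -0.0310, with an exact permutation P of 0.0286 without KO 28. The leading Ighv share difference lay between -0.301 and 5.88, negative without KO 26, and the leading Igkv share difference between -2.06 and 0.596, positive without WT 23 (0.504), WT 24 (0.244), KO 27 (0.291) and KO 28 (0.596). Correlations of the 3 pairs stayed between 0.875 and 0.998. Depth limits Mzb1, Ms4a1, Iglc2 and most variable segments, which had few counts.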

Other observations

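Other B lineage genes did not share 1 pattern. Fcrl5, an Fc receptor-like protein of B cells, did not pass the filter and had 106 counts in KO 29, 22 in WT 24, 11 in KO 26, 6 in KO 27, 1 in WT 23 and 0 in the other 3 livers. Pax5, the factor that sets B cell identity, had 20, 4, 44 and 12 counts in WT livers and 5, 7, 4 and 21 in MøFoxO1-KO livers (log2 fold change -0.92 ± 0.74, edgeR, adjusted P = 0.572). Pax5 was highest in WT 24. Ebf1 had at most 11 counts in any liver. These genes were chosen after their values were seen.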
